A study of Mus musculus with 12 samples.

Results

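The FLRT proteins and the teneurins were examined in NSC-34 cells, made by fusing mouse neuroblastoma with embryonic spinal cord motor neurons, that make less or more progranulin (PGRN). The members are the 7 genes Flrt1, Flrt2, Flrt3, Tenm1, Tenm2, Tenm3 and Tenm4, taken by symbol out of 19057 genes with a probe on the Illumina mouse whole-genome BeadChip, and all of their 17 probes were read. NSC-34/shPGRN (shPGRN) cells carry a short hairpin RNA against mouse PGRN, NSC-34/hPGRN (hPGRN) cells stably express human PGRN on top of their own mouse PGRN, and control cells carry a vector alone. Each line gave 4 arrays, all of bulk RNA taken after 24 h in 1% serum.

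The 4 arrays of a line come from flasks sub-cultured from 1 stable line, and the p-values therefore speak to flask-to-flask spread, not to that between independently made lines. The hairpin and the human PGRN were delivered on different vectors under different drugs, and no source used here says which empty vector the control cells on these arrays carried, so differences due to the vector, the drug or the choice of line cannot be told apart from those due to PGRN. In bulk RNA, fewer expressing cells and less RNA per cell cannot be told apart. The gene set was chosen by values of these same arrays: that Flrt1 differed between shPGRN and hPGRN cells was known, and which other values were in view is not recorded. For this reason the differences of Flrt1, and those of every member between shPGRN and hPGRN cells, are described without a test.

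FLRTs are single-pass membrane proteins with an outer stack of leucine-rich repeats, and teneurins are large single-pass membrane proteins of the neuronal surface that bind one another across the gap between cells. Both families bind the latrophilins, a group of adhesion G-protein coupled receptors, and an FLRT and a teneurin can occupy 1 latrophilin together. FLRTs also bind the UNC5 receptors, which repel growing axons and migrating neurons. In neurons these contacts are known for cell migration, axon guidance and the matching of partners at the synapse.

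The arrays were alike in the number of probes they detected. The deposited values had already been brought close to 1 common distribution, so this likeness is no check of array quality. Between 19213 and 19668 probes per array lay above background, the level that only 5% of empty signal would pass (an intensity of 12.0 to 12.8), and arrays within a line correlated on the log2 scale at 0.988 to 0.996 (r over genes, which are no independent replicates). Grn, which encodes PGRN, had intensities of 646, 635, 665 and 502 in shPGRN cells, 922, 1273, 1043 and 956 in hPGRN cells and 896, 899, 811 and 942 in control cells. Every shPGRN array was below every array of the other lines, and the probe is annotated to the mouse gene, not to the human PGRN that hPGRN cells express. Of 12 motor neuron and neuron markers on the array 7 passed the filter, among them Isl1, Lhx3 and Slc18a3, but Chat, Mnx1 and Tubb3 did not. None of 4 astrocyte markers did, against 2 of 6 fibroblast, 1 of 3 oligodendrocyte and Schwann cell and 2 of 7 macrophage markers.

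Of the 7 members, 4 gave a signal that could be compared. The filter asked for a reading above background on at least 4 of 12 arrays, which held for 8 of the 17 member probes, and the brightest kept probe stands for its gene. Flrt1, Flrt3, Tenm3 and Tenm4 passed in this way. Flrt2, Tenm1 and Tenm2 did not: their 7 probes ranged from -27.3 to 13.2 in intensity, and 1 of their 84 array readings was above background, that of Flrt2 in replicate 4 of control cells at 13.2. For these 3 genes the arrays show only that no level was measurable in any line. Intensities of different probes depend on the probe, so levels are compared between lines and not between genes.

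**Figure D1:**
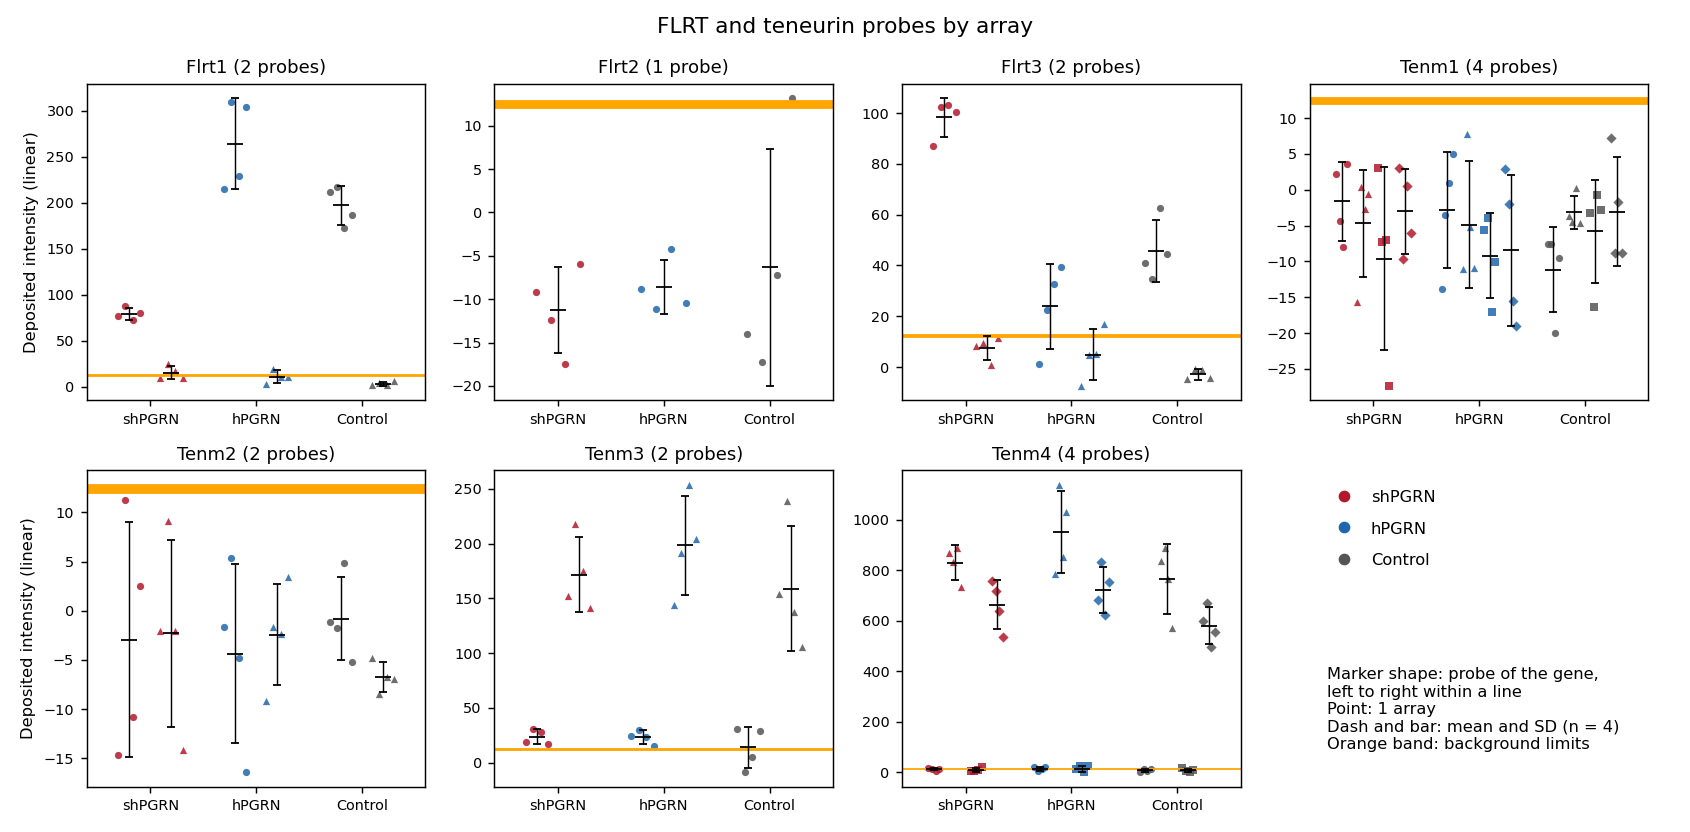
Deposited intensity (linear scale, own axis per gene) of every probe of the 7 members on each of the 12 arrays, with the mean and SD of each line (n = 4 arrays) and the band of background limits. The brighter Flrt1 probe lies between 72.7 and 88.3 in shPGRN cells and at 173 or more in both other lines, the brighter Flrt3 probe lies at 87.0 or more in shPGRN cells and at 62.7 or less in both other lines, and the lines overlap for Tenm3 and Tenm4.

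Flrt1, an FLRT found in human brain and kidney, was lowest in shPGRN cells on the brighter of its 2 probes. This probe had intensities of 77.1, 88.3, 72.7 and 79.7 in shPGRN cells, 215, 309, 229 and 304 in hPGRN cells and 212, 217, 173 and 187 in control cells. All 4 shPGRN arrays lay below every array of the other lines, while the hPGRN and control arrays overlapped. The mean was 79.5 ± 6.56 in shPGRN cells, 264 ± 49.4 in hPGRN cells and 197 ± 20.9 in control cells (SD, n = 4 each). On the log2 scale used for all fits, in which an intensity of 0 becomes 72.1 before the logarithm so that differences of dim probes are compressed, shPGRN minus hPGRN was -1.14 (SE 0.10, 95% interval -1.35 to -0.93) and shPGRN minus control was -0.83 (SE 0.10, interval -1.04 to -0.61). hPGRN minus control was 0.31 (SE 0.10, interval 0.10 to 0.52). The first of these differences was known when the set was chosen, and no test is attached to any of them.

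The second Flrt1 probe was too dim to show an order of lines. Its intensities were 9.69, 24.3, 17.2 and 9.43 in shPGRN cells, 2.86, 19.7, 11.1 and 11.2 in hPGRN cells and 1.82, 4.34, 1.48 and 6.18 in control cells. It was above background on 2 shPGRN arrays, 1 hPGRN array and no control array, so it was left out of the fits. It gives no level to set beside the first, and the order of lines for Flrt1 rests on 1 probe. The dim probe is the one annotated to a RefSeq transcript, whereas the brighter one is annotated to the gene with no transcript accession.

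Flrt1 lies inside another gene, Macrod1, which encodes a hydrolase that removes ADP-ribose from proteins. Macrod1 (chosen after its values were seen) had intensities of 95.6, 52.5, 45.5 and 74.4 in shPGRN cells, 130, 165, 142 and 134 in hPGRN cells and 69.7, 68.0, 76.5 and 73.4 in control cells. It was lower in shPGRN than in hPGRN cells (log2 difference by limma -0.64, SE 0.10, adjusted p = 0.000147) and higher in hPGRN than in control cells (log2 difference by limma 0.58, SE 0.10, adjusted p = 0.00118). shPGRN and control cells overlapped on Macrod1 (log2 fold change -0.06, SE 0.10), where the brighter Flrt1 probe had its difference of -0.83. Whether the brighter Flrt1 probe also binds Macrod1 transcripts was not tested.

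Flrt3, an FLRT known for axon guidance, cell sorting and synapse formation, went the other way. Its brighter probe had intensities of 87.0, 102, 103 and 101 in shPGRN cells, 1.23, 22.3, 32.8 and 39.6 in hPGRN cells and 41.0, 34.6, 62.7 and 44.6 in control cells. Every shPGRN array was above every array of the other lines, and replicate 1 of hPGRN cells was the single array not above background. Flrt3 rose in shPGRN cells against control cells (log2 difference by limma 0.54, SE 0.11, 95% interval 0.30 to 0.77, adjusted p = 0.00213). Whether this difference was in view when the set was chosen is not recorded, and its shPGRN arrays entered that choice. The adjusted p is given with that limit. shPGRN minus hPGRN was 0.84 (SE 0.11, interval 0.61 to 1.08), given without a test. hPGRN minus control was -0.31 (SE 0.11, interval -0.54 to -0.07, limma adjusted p = 0.111), and those arrays overlapped. On the deposited values floored at the lowest positive one, the shPGRN minus control difference was 1.14 (SE 0.93) and did not pass (limma adjusted p = 0.501). That SE comes from a spread shared by all lines, which includes the hPGRN reading of 1.23.

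The second Flrt3 probe was dim. It ranged from 0.674 to 11.3 in shPGRN cells, from -7.36 to 16.9 in hPGRN cells and from -4.78 to -0.816 in control cells, and 1 of its 12 readings was above background, so it gives no level to set beside the first. Flrt3 lies inside Macrod2 on the opposite strand. Macrod2, a relative of Macrod1 (chosen after its values were seen), had intensities of 60.8, 105, 78.0 and 68.3 in shPGRN cells, 83.7, 72.1, 98.8 and 67.0 in hPGRN cells and 96.4, 99.2, 65.7 and 98.9 in control cells. The 3 lines overlapped on it, with limma adjusted p of 0.908, 0.542 and 0.722 in shPGRN minus hPGRN, shPGRN minus control and hPGRN minus control.

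**Figure D2:**
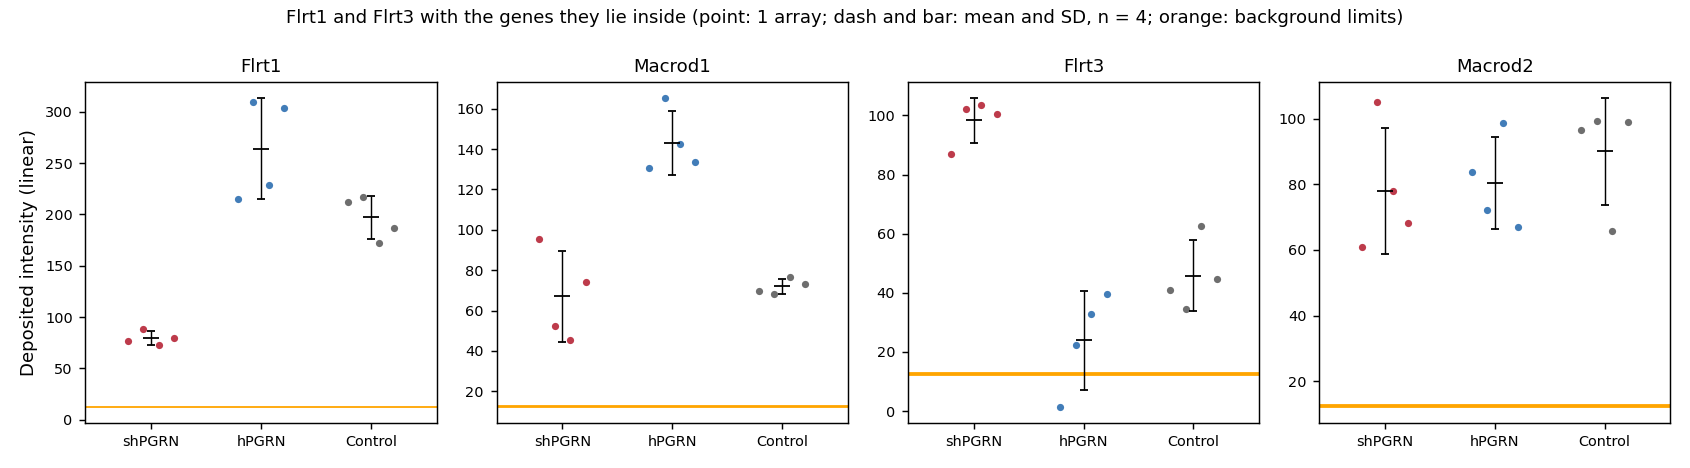
Deposited intensity (linear, own axis per gene) of Flrt1 and its enclosing gene Macrod1 and of Flrt3 and its enclosing gene Macrod2, with 1 point per array and the mean and SD of each line (n = 4). Macrod1 is highest in hPGRN cells, at 130 or more, while its shPGRN and control arrays overlap, and Macrod2 overlaps between all lines.

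RefSeq promoter entries matched 6 of the 7 members, all but Flrt1. The bases before the start listed for Flrt3, whose transcripts rose against control cells, and for Tenm3, a measured member whose lines overlapped, are shown. They are examples of a member that moved and of one that did not pass the test. Both are on the minus strand of mouse build GRCm38.p6, at chr2:140671477-140671726 for Flrt3 and chr8:48674691-48674940 for Tenm3, and are written 5′ to 3′ up to the start. Capitals mark the cyclic AMP response element TGACGTCA.
Flrt3: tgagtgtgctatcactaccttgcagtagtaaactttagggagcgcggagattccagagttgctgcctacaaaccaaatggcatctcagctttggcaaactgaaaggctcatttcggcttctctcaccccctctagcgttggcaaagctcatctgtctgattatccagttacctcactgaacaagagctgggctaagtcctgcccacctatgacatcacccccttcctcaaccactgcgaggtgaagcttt
Tenm3: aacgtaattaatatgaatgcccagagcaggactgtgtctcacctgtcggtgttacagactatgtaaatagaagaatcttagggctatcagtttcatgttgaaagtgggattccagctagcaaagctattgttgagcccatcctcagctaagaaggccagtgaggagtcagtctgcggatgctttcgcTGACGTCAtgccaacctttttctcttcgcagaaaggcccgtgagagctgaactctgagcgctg
Both strands were searched for TGACGTCA, the AP-1 site TGACTCA, the GC box GGGCGG, the TATA box TATAAA and the CCAAT box CCAAT, none of which contains another. The Flrt3 window held none of them, and the Tenm3 window held the TGACGTCA, which begins 63 bases before the start. Both windows listed for Tenm4, the other measured member that did not pass, also held none of them. Nothing is therefore read from the contrast between Flrt3 and Tenm3. Of 32851 windows of this length 1.55% held TGACGTCA, 4.46% TGACTCA, 32.7% GGGCGG, 12.4% TATAAA and 33.8% CCAAT. The Flrt3 window had 5 CpG dinucleotides and the Tenm3 window 8, against a median of 6 over all windows. A match is a description of the letters and not a site shown to be in use.

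Tenm3, a teneurin known in mouse for matching the wiring of the visual pathway and hippocampus, was measurable in every line and did not separate them. Its brighter probe had intensities of 153, 218, 175 and 141 in shPGRN cells, 144, 191, 254 and 204 in hPGRN cells and 154, 239, 138 and 106 in control cells. The arrays of all lines overlapped. shPGRN minus control was 0.10 (SE 0.14, 95% interval -0.20 to 0.40, limma adjusted p = 0.727) and hPGRN minus control was 0.24 (SE 0.14, interval -0.05 to 0.54, limma adjusted p = 0.367). shPGRN minus hPGRN was -0.14 (SE 0.14, interval -0.44 to 0.15). The dimmer kept probe ranged from 17.3 to 30.5 in shPGRN cells, 15.1 to 29.9 in hPGRN cells and -8.88 to 30.9 in control cells, again with overlap. The overlap does not show that the lines are alike, since the intervals reach 0.40 for shPGRN cells and 0.54 for hPGRN cells above control.

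Tenm4, a teneurin that in mouse is needed for myelination, had 4 kept probes, of which 2 were bright. The brightest had intensities of 867, 832, 890 and 733 in shPGRN cells, 785, 1139, 852 and 1030 in hPGRN cells and 838, 888, 765 and 569 in control cells. The second had 759, 716, 639 and 537 in shPGRN cells, 681, 833, 622 and 754 in hPGRN cells and 599, 669, 497 and 555 in control cells. On both, the lines overlapped and hPGRN cells had the highest mean. The brightest probe gave 0.12 for shPGRN minus control (SE 0.12, 95% interval -0.13 to 0.38, limma adjusted p = 0.586) and 0.29 for hPGRN minus control (SE 0.12, interval 0.04 to 0.55, limma adjusted p = 0.167). The second bright probe gave 0.28 for hPGRN minus control (SE 0.11, limma adjusted p = 0.158 over all kept probes). shPGRN minus hPGRN was -0.17 (SE 0.12, interval -0.43 to 0.08) on the brightest. The 2 dim kept probes ranged from 2.02 to 19.9 and 5.20 to 16.9 in shPGRN cells, from -1.86 to 23.2 and 3.03 to 18.4 in hPGRN cells and from 1.66 to 14.1 and 1.13 to 12.3 in control cells, close to the background limit, and their intervals all included 0.

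The members without a measurable level were Flrt2, which guides migrating neurons and acts in the developing heart, Tenm1, which lies on the X chromosome and whose C-terminal end is released as a peptide, and Tenm2, a teneurin of the postsynaptic side that binds latrophilin 1. Flrt2 ranged from -17.5 to -5.91 in shPGRN cells, from -11.1 to -4.22 in hPGRN cells and from -17.2 to 13.2 in control cells. None of the 4 Tenm1 probes was above background on any array (-27.3 to 7.76), and neither was either Tenm2 probe (-16.5 to 11.2). No difference between lines was computed from such values.

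**Figure D3:**
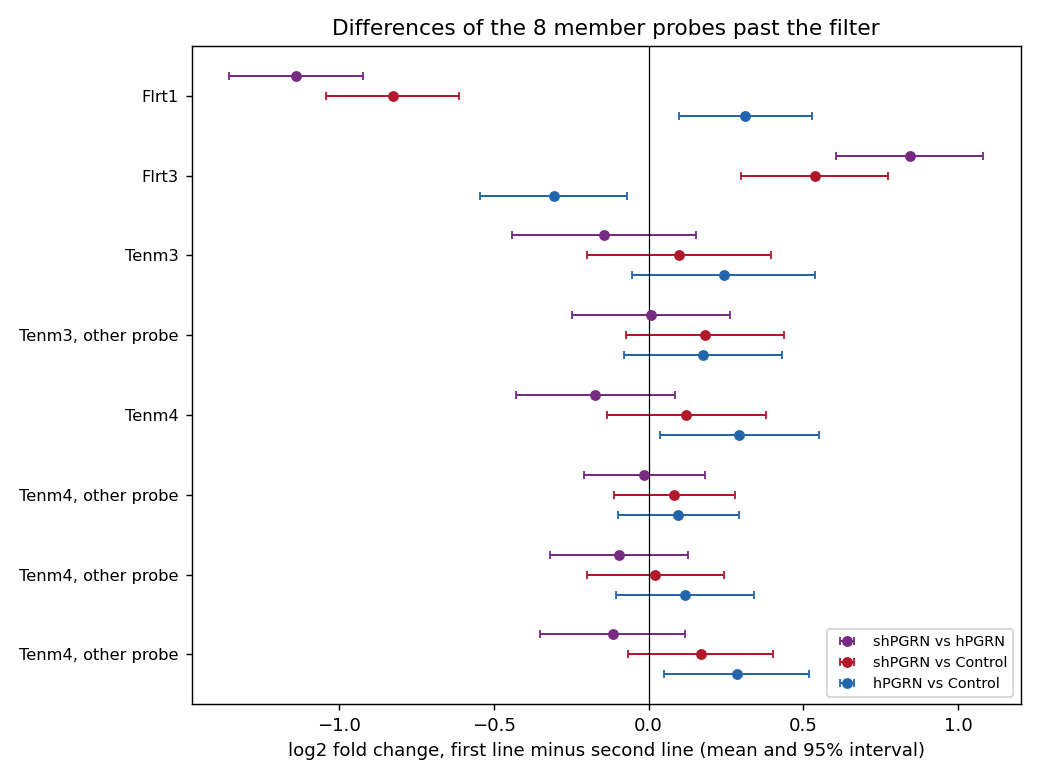
log2 fold change with its 95% interval for each of the 8 member probes past the filter, for shPGRN minus hPGRN, shPGRN minus control and hPGRN minus control cells (limma on 12 arrays with every kept probe as its own row). The intervals of Flrt1 and Flrt3 lie on opposite sides of 0 in each comparison (-1.14 and 0.84 in the first), and those of the Tenm3 and Tenm4 probes include 0 in both comparisons of shPGRN cells. In hPGRN minus control the intervals of the 2 bright Tenm4 probes lie above 0 (0.04 to 0.55 and 0.05 to 0.52). Neither these probes nor Flrt3 passed an adjusted p of 0.05 by limma in that comparison.

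Counts over members leave out Flrt1, and leave out shPGRN against hPGRN cells, where the values chose the set and where 13.9% of all 11257 tested genes passed an adjusted p of 0.05 (7.11% lower and 6.79% higher). Of Flrt3, Tenm3 and Tenm4, 0 were lower and 1 was higher in shPGRN against control cells by limma, where 14.2% of all genes passed (6.87% lower and 7.34% higher). In hPGRN against control cells 0 of the 3 passed by limma, where 6.96% of all genes did (3.22% lower and 3.73% higher), and 2 of the 3 had an unadjusted p under 0.05, as 20.4% of all genes had. With 3 genes counted, nothing is read from these counts. The median log2 fold change of the 4 tested members was -0.16 in shPGRN minus hPGRN, 0.11 in shPGRN minus control and 0.27 in hPGRN minus control. These medians include Flrt1 and the comparison whose values chose the set, so nothing is read from them. The 2 comparisons of shPGRN cells share those arrays, and the 2 against control cells share the control arrays.

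Among the receptors and other binding partners, Robo1 was higher in shPGRN cells than in both other lines. Mbd1 passed only against control cells, and calls of both genes were lost under some changes of arrays or processing. The list holds 14 genes, of which 13 were on the array and 10 were tested: the latrophilins Adgrl1 and Adgrl3, the netrin receptors Unc5a, Unc5b and Unc5c, the FGF receptors Fgfr1 and Fgfr2, the Slit receptor Robo1, the dystroglycan gene Dag1 and the methyl-CpG binding gene Mbd1. By limma, 1 was higher and 0 lower in shPGRN against hPGRN cells (13.9% of all genes passed), 2 were higher and 0 lower in shPGRN against control cells (14.2% of all genes), and 0 passed in hPGRN against control cells (6.96% of all genes). At an unadjusted p under 0.05 the counts were 2, 3 and 2 of 10, where 26.8%, 26.8% and 20.4% of all genes had such a p. These shares are near those over all genes, and nothing particular to the partners is read from them. Their median log2 fold changes were 0.05, 0.03 and 0.03.

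Robo1, which FLRT3 binds in mouse axons, was the partner higher in shPGRN cells than in both other lines. It had intensities of 94.6, 78.0, 76.8 and 119 in shPGRN cells, 58.7, 41.7, 58.7 and 71.5 in hPGRN cells and 41.6, 72.2, 51.4 and 47.7 in control cells, with no overlap between shPGRN cells and either other line. The log2 difference by limma was 0.34 against hPGRN cells (SE 0.10, adjusted p = 0.0331) and 0.39 against control cells (SE 0.10, adjusted p = 0.0140). The first no longer passed without replicate 1 or 4 of shPGRN cells or replicate 1, 2 or 3 of hPGRN cells (adjusted p 0.0568 to 0.121), on the floored values (0.0834) or with no filter on dim probes (0.0536), and the second did not without replicate 4 of shPGRN cells (adjusted p = 0.0561). Mbd1, which binds the intracellular part of teneurin-1, was higher in shPGRN than in control cells, with 334, 373, 379 and 356 in shPGRN cells, 253, 308, 242 and 357 in hPGRN cells and 236, 324, 273 and 259 in control cells (log2 difference by limma against control 0.33, SE 0.10, adjusted p = 0.0358). That call was lost without replicate 2, 3 or 4 of shPGRN cells or replicate 1, 3 or 4 of control cells (adjusted p 0.0589 to 0.112), with a normexp offset of 16, on the floored values or with no filter on dim probes (0.0570 to 0.0877), and on the mean of its kept probes the difference was 0.07 (adjusted p = 0.577).

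Adgrl1, or latrophilin 1, overlapped between the lines. It had 435, 421, 312 and 357 in shPGRN cells, 375, 408, 335 and 424 in hPGRN cells and 416, 438, 425 and 279 in control cells. shPGRN minus control was -0.02 (SE 0.12, 95% interval -0.26 to 0.23) and hPGRN minus control was 0.00 (SE 0.12, interval -0.25 to 0.24). Unc5b, a netrin receptor that FLRTs bind, had 121, 120, 104 and 98.2 in shPGRN cells, 119, 139, 91.4 and 125 in hPGRN cells and 92.6, 116, 58.1 and 24.7 in control cells. Its differences against control were 0.38 for shPGRN cells (SE 0.14, limma adjusted p = 0.0803) and 0.43 for hPGRN cells (SE 0.14, limma adjusted p = 0.0703), and the control arrays overlapped both. Without replicate 2 of control cells both passed (adjusted p of 0.0143 and 0.0136). The partners that did not pass had log2 fold changes between -0.12 and 0.27 in shPGRN against hPGRN cells, -0.11 and 0.38 in shPGRN against control cells and -0.21 and 0.43 in hPGRN against control cells.

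None of the remaining tested partners passed in any comparison. Fgfr1, an FGF receptor whose signal FLRT3 promotes in Xenopus, ranged over 21.1 to 37.1 in shPGRN cells, 14.2 to 25.1 in hPGRN cells and 8.85 to 28.7 in control cells, and Fgfr2 over 9.14 to 18.1 in shPGRN cells, -2.68 to 15.4 in hPGRN cells and 13.4 to 27.8 in control cells. Unc5a ranged over 28.2 to 47.0 in shPGRN cells, 36.8 to 54.4 in hPGRN cells and 29.5 to 36.7 in control cells, and hPGRN minus control was 0.15 (SE 0.09, limma adjusted p = 0.349) although those arrays did not overlap. Unc5c ranged over 61.4 to 103 in shPGRN cells, 54.5 to 77.1 in hPGRN cells and 73.7 to 99.8 in control cells. Dag1, whose product dystroglycan binds teneurin-1, ranged over 105 to 174 in shPGRN cells, 128 to 166 in hPGRN cells and 93.6 to 159 in control cells. Adgrl3, the latrophilin that FLRT3 binds across the synapse, ranged over 3.09 to 19.2 in shPGRN cells, 5.58 to 15.0 in hPGRN cells and -0.43 to 21.1 in control cells, around the background limit. Adgrl2, Unc5d and Rnd1 did not pass the filter, at -16.7 to 20.5 over all arrays.

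**Figure D4:**
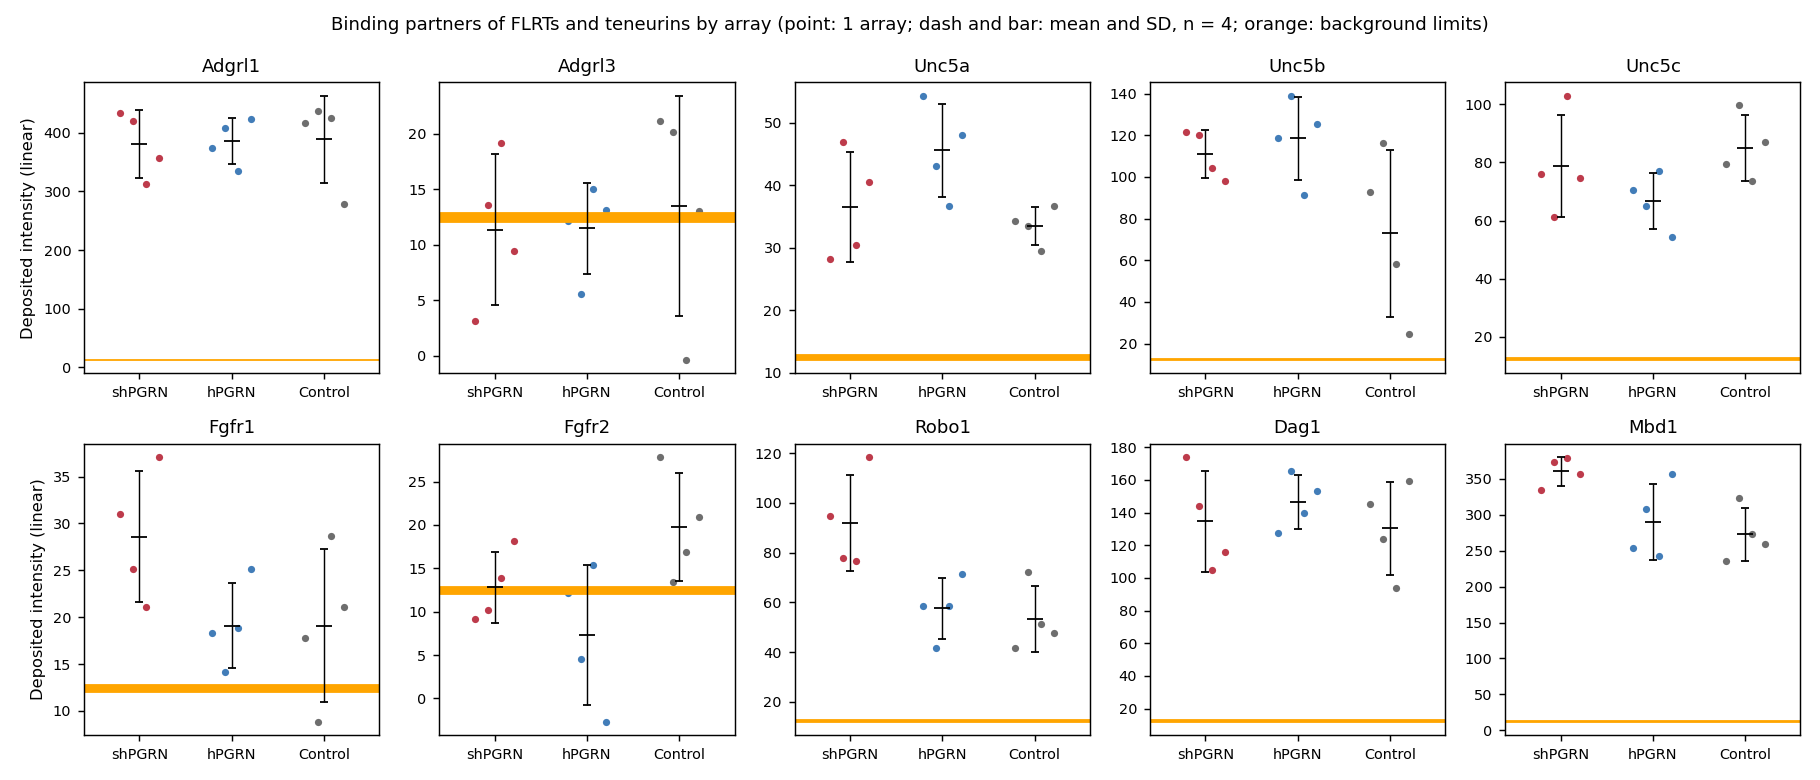
Deposited intensity (linear, own axis per gene) of the 10 tested binding partners on each array, with the mean and SD of each line (n = 4) and the band of background limits. Robo1 lies at 76.8 or more in shPGRN cells and at 72.2 or less in both other lines, and Adgrl1 overlaps between all lines.

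For comparison with the members, 54 other leucine-rich repeat and synaptic adhesion genes were listed, of which 49 were on the array and 24 were tested. In shPGRN against hPGRN cells 3 were lower and 1 higher, in shPGRN against control cells 2 were lower and 2 higher, and in hPGRN against control cells 1 was lower and 2 were higher, where 13.9%, 14.2% and 6.96% of all genes passed in the same comparisons. Their median log2 fold changes were -0.03, -0.08 and -0.03. Over all genes 7.11% were lower and 6.79% higher in the first comparison, 6.87% and 7.34% in the second and 3.22% and 3.73% in the third. Calls in both directions are thus found over all genes, and nothing particular to this list is read from them.

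Lrig1, a leucine-rich repeat protein that restrains growth factor receptors, was higher in shPGRN cells, as Flrt3 was. It had 338, 301, 372 and 306 in shPGRN cells, 225, 140, 179 and 173 in hPGRN cells and 217, 216, 230 and 151 in control cells. Its log2 difference by limma was 0.68 against hPGRN cells (SE 0.11, adjusted p = 0.000175) and 0.55 against control cells (SE 0.11, adjusted p = 0.00156). The calsyntenin Clstn3, an adhesion protein of the postsynaptic side, had 38.1, 41.8, 35.3 and 42.3 in shPGRN cells, 165, 143, 91.2 and 77.2 in hPGRN cells and 47.6, 62.5, 53.5 and 19.9 in control cells. It was lower in shPGRN than in hPGRN cells (log2 difference by limma -0.75, SE 0.13, adjusted p = 0.000324) and higher in hPGRN than in control cells (0.68, SE 0.13, adjusted p = 0.00204). The neurexin Nrxn2, of the presynaptic side, and the calsyntenin Clstn1, which links cargo to kinesin, were also lower in shPGRN than in hPGRN cells (log2 differences by limma -0.60, SE 0.14, adjusted p = 0.00528 and -0.47, SE 0.11, adjusted p = 0.00548). On the floored values Nrxn2 in this comparison (adjusted p = 0.0652) and Clstn3 in hPGRN against control cells (adjusted p = 0.0537) did not pass.

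Against control cells the adhesion genes past the threshold were Cadm1, Lrrn3, Ptprs, Lrig1 and Clstn3. Cadm1, an immunoglobulin-type synaptic adhesion protein, had 821, 810, 931 and 937 in shPGRN cells, 1115, 988, 1034 and 1114 in hPGRN cells and 1188, 1361, 1421 and 1146 in control cells. It was lower in shPGRN than in control cells (log2 difference by limma -0.51, SE 0.09, adjusted p = 0.000572). Every hPGRN array was also below every control array, though hPGRN minus control did not pass (-0.25, SE 0.09, limma adjusted p = 0.121). Lrrn3, a leucine-rich repeat neuronal membrane protein, had 614, 469, 529 and 503 in shPGRN cells, 423, 696, 516 and 715 in hPGRN cells and 882, 757, 789 and 795 in control cells. It was lower than in control cells in shPGRN cells (log2 difference by limma -0.55, SE 0.12, adjusted p = 0.00349) and in hPGRN cells (-0.44, SE 0.12, adjusted p = 0.0319), but the second call was lost without replicate 1 or 3 of hPGRN cells or replicate 1 or 3 of control cells (adjusted p 0.0639 to 0.128), with an offset of 16 (0.0878), on the floored values (0.142) or with array weights (0.0638). Ptprs, a receptor phosphatase that organizes presynaptic terminals, was higher than in control cells both in shPGRN cells (log2 difference by limma 0.37, SE 0.11, adjusted p = 0.0234) and in hPGRN cells (0.55, SE 0.11, adjusted p = 0.00330). Its first call was lost without replicate 1 or 2 of shPGRN cells or replicate 3 or 4 of control cells (adjusted p 0.0572 to 0.0844), with an offset of 16 (0.0577) or on the floored values (0.0826), and on the mean of its kept probes the difference was 0.16 (adjusted p = 0.200). Lingo1, a Nogo receptor subunit, was next in hPGRN against control cells and did not pass (log2 fold change -0.32, SE 0.12, limma adjusted p = 0.107).

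**Figure D5:**
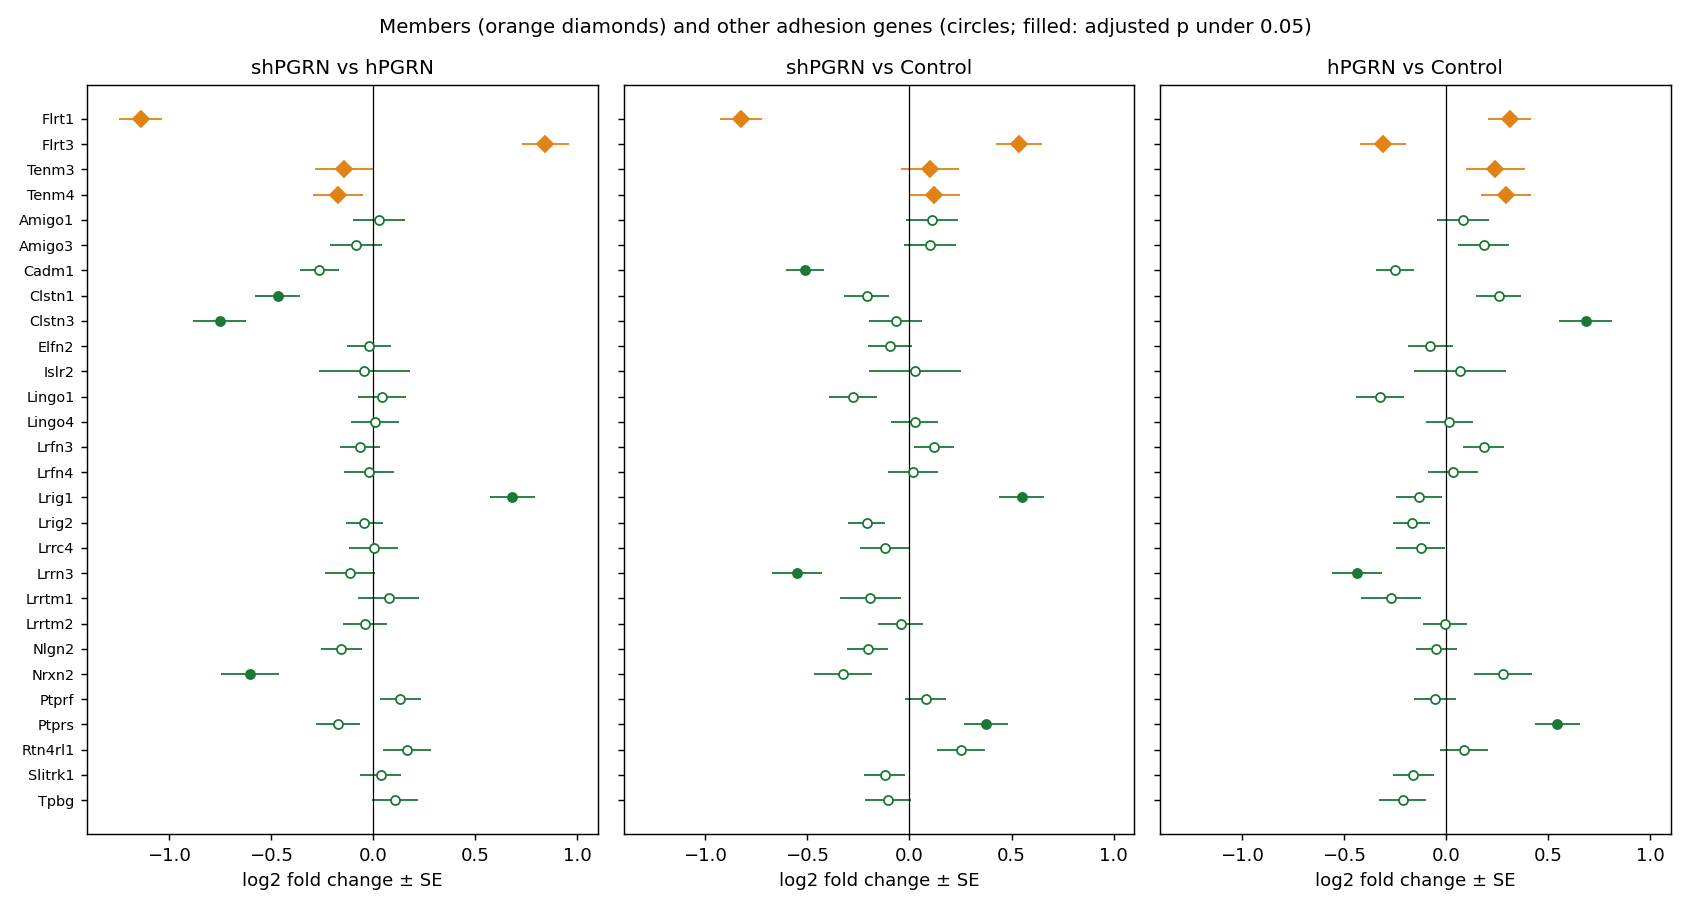
log2 fold change with its SE (limma, 12 arrays) of the 4 tested members (orange diamonds, no test shown) and the 24 tested adhesion genes (circles, filled where the adjusted p is under 0.05) in each comparison. In shPGRN against hPGRN cells the adhesion genes range from Clstn3 at -0.75 to Lrig1 at 0.68, with Flrt1 at -1.14 and Flrt3 at 0.84. The members were chosen with values of that comparison known, so nothing is read from their place beside the adhesion genes.

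The genes whose log2 values over the 12 arrays were most like Flrt1 were Pi16, a secreted peptidase inhibitor (Pearson r 0.972), Nol3, an inhibitor of apoptosis (r 0.971), and Srgap3, a GTPase-activating protein of the Slit and Robo pathway (r 0.968). Srgap3 had 169, 148, 158 and 129 in shPGRN cells, 393, 517, 386 and 511 in hPGRN cells and 450, 460, 388 and 392 in control cells, with shPGRN cells lowest and the other lines overlapping, as on the brighter Flrt1 probe. Pi16 had 161, 187, 157 and 176 in shPGRN cells, 463, 503, 430 and 431 in hPGRN cells and 340, 347, 333 and 318 in control cells. For Flrt3 they were Rpp38, a subunit of ribonuclease P (r 0.939), Pter, a phosphotriesterase-related protein (r 0.929), and Cenpv, a centromere protein (r 0.925). Cenpv had 2699, 2644, 2760 and 2684 in shPGRN cells, 1981, 1979, 2030 and 2042 in hPGRN cells and 2129, 2207, 2554 and 2382 in control cells. The 12 points share 3 line means, so any gene that separates the lines in the same order correlates in this way.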

How the data were processed

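Transcripts of 3 NSC-34 lines were measured on Illumina mouse whole-genome BeadChips, with 4 arrays per line. The authors deposited 1 intensity per probe and array, on a linear scale, with the background already subtracted. The arrays had already been brought close to 1 common distribution. The methods name lumi normalization, and which steps made this table is not stated. A second deposited table of non-normalized signals was not used, since its 24 columns match no sample label. No source used here says which chip held which array, and a chip effect could not be fitted.

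From 31.7% to 31.8% of the deposited values were below 0. They were corrected with normexp (offset 50), quantile normalized and log2 transformed in limma 3.58.1 (R 4.3.3), which turns a deposited 0 into 72.1 before the logarithm and shrinks differences of dim probes. The background limit of an array, 12.0 to 12.8, was set at p under 0.05 from the peak of its intensities and the width of their lower side. Probes above this limit on 4 or more of the 12 arrays were kept, which left 17549 of 45281 probes. Of all probes, 34885 had 1 gene symbol, 18 several and 10378 none, and 34807 matched RefSeq. Each gene was read from its brightest kept probe, giving 11257 genes, 4221 of them with more than 1 kept probe. Lines were compared with limma (lmFit and eBayes) on all 12 arrays, with the Benjamini-Hochberg adjustment run over all genes of each comparison and a threshold of 0.05. Intervals are 95% intervals, and the number of arrays limits their precision. The steps were tested on simulated data.

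The members, the partner and adhesion lists and the rule for named genes were chosen with earlier results of these data known. Named are all members with every probe, Grn, all tested partners where described, up to 4 adhesion genes per comparison with the smallest adjusted p, and the 3 genes with the highest Pearson r to a member whose line means differ at least 1.5-fold. Same-numbered arrays of different lines did not deviate together (correlations of deviations from the line mean -0.16 to 0.13 over 12 pairs), and the numbers were therefore not treated as pairing arrays. Alternatives changed the background correction, normalization, filter, probe of a gene, arrays in the fit, array weights, variance prior, replicate block, or left out 1 array. Promoter windows are from RefSeq (GRCm38.p6, Python 3.11.15).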

Additional observations from a re-analysis of the deposited data

Results flagged for a closer look

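Of 105 groups of 4 arrays checked, 4 had 1 array set far apart from the other 3, and chance gives about 1 in 20 such groups. Flrt3 in replicate 1 of shPGRN cells was 87.0, below the others at 101 to 103. Rpp38, whose values are like those of Flrt3, was 258 on that same array, below the others at 313 to 322. Adgrl1 in replicate 4 of control cells was 279, below the others at 416 to 438. Macrod2 in replicate 3 of control cells was 65.7, below the others at 96.4 to 99.2.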

How the results depend on the processing

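Up to 26 alternatives gave a value for a gene (25 for Flrt3 and Fgfr1, 24 for Adgrl3 and Fgfr2, which a stricter filter removed). Leaving out the values that are given without a test, 2194 gene results stayed on their side of the threshold, 37 lost a call, 14 gained one and 0 reversed. A reversal was counted only where the sign changed and the main or the alternative fit passed. Differences that passed in neither did change sign. Adgrl1, for example, did so in 5, 6 and 8 of 26 alternatives in shPGRN minus hPGRN, shPGRN minus control and hPGRN minus control. Members past the threshold are counted without Flrt1 and without shPGRN against hPGRN cells, whose values chose the set. Of Flrt3, Tenm3 and Tenm4, 1 passed in shPGRN against control cells, which was Flrt3, and 0 in hPGRN against control cells. Flrt3 did not pass on the deposited values with a floor. With the filter at all 12 arrays Flrt3 was not tested because 1 array was below background. In hPGRN against control cells none of these 3 passed under any alternative that tested them. The lowest limma adjusted p there was 0.0635 for Flrt3, 0.0790 for Tenm3 and 0.0865 for Tenm4. Over leaving out each array the genes past the threshold were 1192 to 1729 in shPGRN against hPGRN cells (1564 with all), 1304 to 1602 in shPGRN against control cells (1599) and 516 to 865 in hPGRN against control cells (783), with 516 both without replicate 4 of hPGRN cells and without replicate 3 of control cells. The Flrt3 difference between shPGRN and control cells ranged over 0.49 to 1.14 (adjusted p 0.000468 to 0.501). With a replicate block 1434, 1484 and 682 genes passed in the 3 comparisons. Flrt3 stayed past the threshold in shPGRN against control cells, and Flrt3, Tenm3 and Tenm4 stayed short of it in hPGRN against control cells. Unc5b passed against control cells (limma adjusted p = 0.0468 in shPGRN and 0.0412 in hPGRN cells), and Lrrn3 in hPGRN against control cells did not (limma adjusted p = 0.0539). The cause of these shifts was not tested. The arrays limit dim probes: only 8 of the 17 member probes were kept, and an intensity below the limit of 12.0 to 12.8 carries no level.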
